A study of Mus musculus with 8 samples.

Results

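Small nucleolar RNAs (snoRNAs) and small Cajal body RNAs (scaRNAs) were taken from the deposited count table by their names, as every row whose gene name begins with *Snord*, *Snora* or *Scarna* followed by a digit. The rule found 113 of 55247 rows, of which 73 were box C/D snoRNAs (*Snord*), 33 were box H/ACA snoRNAs (*Snora*) and 7 were scaRNAs (*Scarna*). The table held counts for 8 RNA-seq libraries of back skin with tumor, each from 1 wild-type female C57BL/6J mouse of 8 weeks that had been inoculated under the skin with EL4 lymphoma cells of the T-cell lineage. In 4 mice (Bexarotene 1 to 4), 0.1 mg of bexarotene, which binds retinoid X receptors, was injected into the peritoneum on Day 14. In the other 4 (Vehicle 1 to 4), vehicle was given, and all tumors were harvested on Day 16. The labels describe exclusion of ribosomal RNA before a directional library kit, but the row of 18S ribosomal RNA (*Rn18s*) held 54.8% to 58.6% of counts in bexarotene-treated and 50.8% to 59.8% in vehicle-treated mice. The comparison asked whether these RNAs differed between bexarotene-treated and vehicle-treated tumor skin, and whether the box C/D class differed in this from the box H/ACA class.

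Small nucleolar RNAs guide chemical marks onto other RNAs by base pairing. Box C/D snoRNAs bind fibrillarin, NOP56, NOP58 and SNU13 and guide methylation of the ribose, whereas box H/ACA snoRNAs bind dyskerin, NOP10, NHP2 and GAR1 and guide the change of uridine into pseudouridine. Small Cajal body RNAs carry boxes of either type or of both, stay in Cajal bodies and guide the marks of spliceosomal RNAs. Some snoRNAs, U3, U8, U14, U17 and U22 among them, act instead in cleavage of the ribosomal RNA precursor. Most vertebrate snoRNAs are cut out of introns of host genes, many of which encode ribosomal proteins, and a few have promoters of their own.

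The boxes that give both classes their names could be read in the annotated sequences (GENCODE vM39 on GRCm39, where all 113 rows had the coordinates of the count table). Box C (ATGATGA or GTGATGA) within the first 20 bases together with box D (CTGA) within the last 12 bases was found in 40 of 73 *Snord* sequences and in 0 of 33 *Snora* sequences. The triplet ACA that ends 3 bases before the 3′ end was found in 26 of 33 *Snora* sequences and in 0 of 73 *Snord* sequences. Among the 7 scaRNAs, 4 held boxes C and D and 2 held the ACA triplet. For comparison, 0% of 1372 annotated small nuclear RNA genes and 0.0475% of 2104 microRNA genes of 60 to 300 bases had both boxes C and D, and 0.948% and 3.42% of the same genes had the ACA triplet. Motifs were searched on the strand of the RNA only. The absence of these letters from a window says nothing of the other forms that the boxes can take.

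Sequences are given for RNAs on which the results turn, with boxes C and D or the ACA triplet in capitals. They were read from the GENCODE vM39 transcripts. *Snord104* lies at chr11:106391819-106391888, plus strand, and *Snord17*, in an intron of *Snx5*, lies at chr2:144107899-144108136, minus strand. *Snord3b4*, a copy of U3, lies at chr11:87353112-87353327, plus strand, over an exon of *Tex14*. In this U3 sequence only box D fell in its window. *Snora73b*, or U17, lies at chr4:132079633-132079837, minus strand, in an intron of *Snhg3* and over an exon of *Rcc1*. *Snora57* lies at chr19:8865902-8866049, minus strand, and *Scarna13*, over an exon of *Snhg10*, lies at chr12:104997334-104997608, minus strand.
Snord104: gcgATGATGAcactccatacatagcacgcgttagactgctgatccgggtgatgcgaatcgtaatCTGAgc
Snord17: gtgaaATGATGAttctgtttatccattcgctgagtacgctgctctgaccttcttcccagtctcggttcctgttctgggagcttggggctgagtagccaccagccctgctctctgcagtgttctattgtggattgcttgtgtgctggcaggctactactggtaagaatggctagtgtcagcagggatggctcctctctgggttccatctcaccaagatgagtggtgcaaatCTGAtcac
Snord3b4: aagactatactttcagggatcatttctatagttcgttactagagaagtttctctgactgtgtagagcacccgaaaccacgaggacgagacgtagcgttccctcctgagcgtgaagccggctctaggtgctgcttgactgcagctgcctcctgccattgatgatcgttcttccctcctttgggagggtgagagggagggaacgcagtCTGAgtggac
Snora73b: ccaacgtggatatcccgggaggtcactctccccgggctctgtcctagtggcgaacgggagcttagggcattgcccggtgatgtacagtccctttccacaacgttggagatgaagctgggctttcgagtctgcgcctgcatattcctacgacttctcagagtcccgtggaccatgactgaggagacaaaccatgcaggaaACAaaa
Snora57: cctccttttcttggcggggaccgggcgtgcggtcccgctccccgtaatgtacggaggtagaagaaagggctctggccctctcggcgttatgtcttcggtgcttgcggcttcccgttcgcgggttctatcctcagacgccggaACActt
Scarna13: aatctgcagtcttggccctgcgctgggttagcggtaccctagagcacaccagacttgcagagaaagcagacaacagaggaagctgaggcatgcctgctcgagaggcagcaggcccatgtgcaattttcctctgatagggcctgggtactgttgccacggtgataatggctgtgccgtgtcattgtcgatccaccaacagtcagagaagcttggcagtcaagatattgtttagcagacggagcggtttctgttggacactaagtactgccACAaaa

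The counts of these RNAs were few and lay in a small number of rows. In all, the 113 RNAs held 12836 of 137771016 counts, of which 6049 were in box C/D rows, 2858 in box H/ACA rows and 3929 in scaRNA rows. A count was found for 56 of the 113, namely 34 of 73 box C/D, 16 of 33 box H/ACA and 6 of 7 scaRNA rows, and 57 stood at 0 in all 8 mice. Both snoRNA classes were therefore counted at a like rate, with 39 box C/D rows and 17 box H/ACA rows at 0. A row at 0 allows up to 3 counts per group of mice, which equals 0.0506 counts per 1000000 counts of the scaled library (CPM) with bexarotene and 0.0253 CPM with vehicle, for counting error only. Only 4 rows held 1000 counts or more, and *Snord3b4* (5373 counts), *Snora73b* (2397), *Scarna13* (1988) and *Scarna2* (1850) together held 90.4% of the counts. 1 row led each snoRNA class, as *Snord3b4* made up 88.8% of box C/D counts and *Snora73b* 83.9% of box H/ACA counts. Beside them, 5 rows had 100 counts or more, 18 had at least 11 counts, 20 had at least 3 and 9 had 1 or 2.

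Most counts lay in the longest RNAs. The 10 RNAs of 200 bases or more held 11945 counts (93.1%), and 7 of them had a count. The 59 RNAs under 100 bases held 346 counts (2.70%) with a median of 0, although 57 of them were box C/D snoRNAs, the form that most members of that class take. Box H/ACA snoRNAs were longer, with a median of 132 bases (127 to 205), against 80 bases (64 to 238) for box C/D snoRNAs and 265 bases (70 to 414) for scaRNAs. The 28 box H/ACA rows under 150 bases held 426 counts, and 14 of them had a count. The short box C/D RNA with most counts was *Snord104*, of 70 bases, with 171 counts. The part of fragment selection in the library and of alignment in this pattern was not tested.

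**Figure D1:**
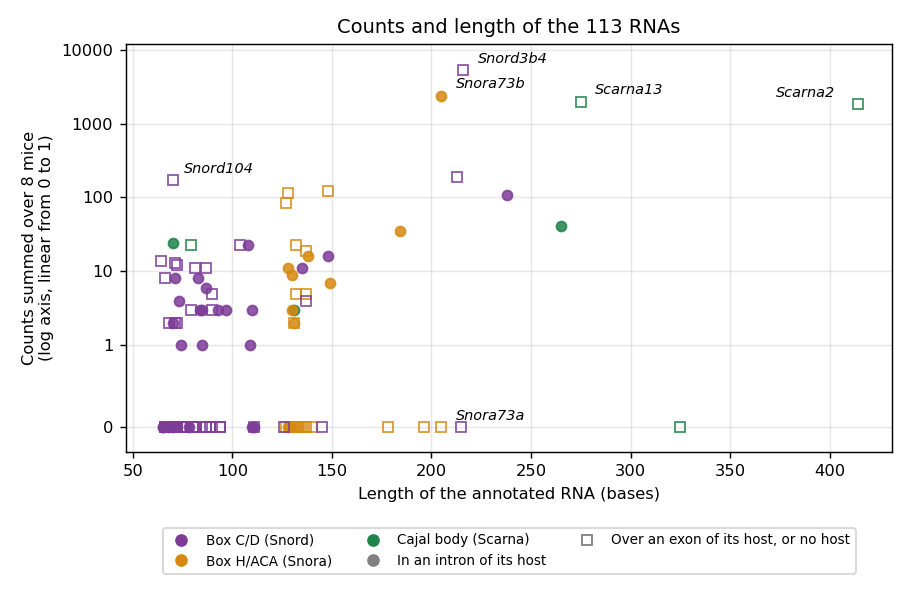
Counts summed over the 8 mice (log axis, linear from 0 to 1) against the length in bases of the 113 RNAs. Color gives the class, filled circles lie in an intron of their host and open squares over an exon of it or without a host. The 4 rows above 1000 counts are all longer than 200 bases, and RNAs under 100 bases mostly lie at 0 or at few counts.

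The place of the RNA in its host gene also went with whether it was counted. In GENCODE vM39, 76 RNAs overlapped an exon of a host gene on their own strand, 36 lay in an intron of it and 1 (*Snord3b-ps1*, a U3 pseudogene) had no host. Among RNAs under 200 bases, 25 of 33 intronic ones (75.8%) had a count, against 18 of 63 (28.6%) that lay over an exon of a host gene with a row in the count table. Where the RNA lay over an exon of a host gene that has no row in the table under its identifier, 6 of 7 (85.7%) had a count. By class, RNAs of all lengths were taken, and exonic ones were pooled whether or not their host has a row. Intronic rows were again counted more often, with 17 of 24 intronic and 17 of 48 exonic box C/D rows. For box H/ACA rows it was 8 of 9 intronic and 8 of 24 exonic. HTSeq in its default modes gives no count to a read that fits 2 genes equally. The mode used is not given in the sources used here, the methods name an older annotation release than the one used here, and the part of this rule in the zeros was not tested.

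Single host genes, here chosen after their values were seen, did not all follow this contrast. *Gas5*, a noncoding RNA known for its many snoRNAs, had 1754 counts, while its 3 RNAs in the table (*Snord47*, *Snord78* and *Snord80*) stood at 0. All 3 lie over an exon of *Gas5* in GENCODE vM39, so these zeros do follow the contrast. *Ncl*, which encodes nucleolin, had 22956 counts, while *Snora75* (over an exon) and *Snord82* (in an intron) stood at 0. In the opposite way, *Snora73b* had 2397 counts while its host *Snhg3* had 168, *Scarna13* had 1988 while *Snhg10* had 34, and *Snord3b4* had 5373 while *Tex14*, a gene of the male germ line, had 6. Of these RNAs, *Snora73b* lies in an intron of its host, and *Scarna13* and *Snord3b4* lie over an exon. Of the 86 host genes, 6 held 3 of the RNAs, 14 held 2 and 66 held 1, and 78 had a row in the table. A host here is any gene that spans the RNA on its strand, whether or not the RNA is made from that gene's transcript. In these hosts, counts of the RNA and of the host did not go together.

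RNAs that act in cleavage of the ribosomal RNA precursor included the most counted row and rows at 0. *Snord3b4* and *Snord3a*, both copies of U3, which starts the early cleavages toward 18S ribosomal RNA, had 5373 and 189 counts. *Snora73b*, a copy of U17, needed for 18S ribosomal RNA in yeast and human cells, had 2397 counts, whereas the second copy *Snora73a* had 0. *Snord118*, or U8, which acts in maturation of 28S ribosomal RNA in frog oocytes, had 11 counts in 7 mice. *Snord13*, or U13, which in human cells guides acetylation of 18S ribosomal RNA, had 3, 1, 4 and 2 counts in Bexarotene 1 to 4 and 6, 1, 1 and 5 in Vehicle 1 to 4. *Snord14a* (U14) and *Snord22* (U22), which lie over exons of *Rps13* and *Snhg1*, stood at 0, as did *Snord107*, a snoRNA of the imprinted *Snrpn* region that is known from brain. These rows at 0 or a few counts were too shallow for any comparison of the mice.

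Near-identical copies make the counts of the U3 and U17 rows uncertain. *Snord3b4* was identical to *Snord3b-ps1* at 95.8% of 216 aligned positions and to *Snord3a* at 85.2%, and *Snora73b* to *Snora73a* at 96.6% of 205. Another row, named U3 and outside the naming rule, held 33322 counts and was chosen after its values were seen. Its deposited length is 863 bases and its annotated span 215, so the stretch of genome it covers is uncertain. Of the counts in this row and *Snord3b4* together, *Snord3b4* held 13.9%, 14.98%, 13.5% and 13.7% in Bexarotene 1 to 4 and 13.6%, 13.6%, 14.7% and 13.7% in Vehicle 1 to 4. These shares were as near to each other within as between the groups, at 14.0% ± 0.666 with bexarotene and 13.9% ± 0.497 with vehicle (SD, n = 4 each). In all, 1175 further rows are typed as snoRNA or scaRNA in GENCODE vM39 but carry other names, and 132 of them held 36327 counts, of which the U3 row made up 91.7%.

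The libraries differed in depth and content in a way that bears on all of the following values. Total counts were 8518428 to 18340980 in bexarotene-treated and 16196852 to 24020342 in vehicle-treated mice, and counts were scaled by TMM, which sets the bulk of genes equal between libraries. Bexarotene 1 and 2 stood apart, with 6.35% and 4.02% of counts in protein-coding genes against 9.55% to 19.0% in the other 6 mice. Their effective library sizes (total counts times the TMM factor) were 6338842 and 2367759, against 18313729 to 50359618 in the others. As a result, an RNA that took an equal share of all counts in every mouse stood higher in Bexarotene 1 and 2 in TMM-scaled CPM, and both scales are given below. Cell markers also differed between the mice. Summed levels of 6 fibroblast markers were 879, 1683, 377 and 493 CPM in Bexarotene 1 to 4, against 262 to 782 CPM with vehicle, so that Bexarotene 1 and 2 were highest here too. Of these 6 markers 3 were higher and 3 lower with bexarotene. The sum was set by *Col1a1*, *Col1a2* and *Col3a1*, each highest in Bexarotene 1 and 2. *Dcn* (10.7 and 6.34 CPM) and *Lum* (0.473 and 0.422 CPM) were instead lowest in these mice, and *Pdgfra* (4.26 and 5.07 CPM) lay below all vehicle-treated mice. All 6 keratinocyte markers had log2 fold changes below 0 (median -0.97, 0 with an unadjusted p under 0.05 in edgeR's test), with sums of 52.1, 39.7, 137 and 90.5 CPM in Bexarotene 1 to 4, against 1.37 to 369 CPM with vehicle. Of 6 skeletal muscle markers 4 were tested, all with values above 0. Among them 1 (*Myh4*, log2 fold change 2.42) had an unadjusted p under 0.05 in edgeR's test. Sums of the 6 were 38.5, 9.29, 186 and 73.1 CPM in Bexarotene 1 to 4, against 32.5 to 103 CPM with vehicle. T-lineage sums were 170.2 to 241 CPM with bexarotene and 181 to 230.1 CPM with vehicle, and macrophage sums were 33.8 to 41.6 CPM with bexarotene and 24.009 to 72.1 CPM with vehicle. Of 6 macrophage markers 1 was higher and 5 lower with bexarotene, and 1 (*Mrc1*, log2 fold change -0.72) had an unadjusted p under 0.05 in edgeR's test. Of 5 neuron markers with a row, *Snap25*, *Snrpn* and *Syt1* stood at 0. The part of these cells in the results below was not tested. In bulk tissue, fewer cells of a type and less RNA per cell cannot be told apart.

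In TMM-scaled CPM, both snoRNA classes were high in Bexarotene 1 and 2 and at the level of vehicle in Bexarotene 3 and 4. Summed box C/D levels were 102, 150, 16.9 and 36.4 CPM in Bexarotene 1 to 4, against 25.8, 22.5, 40.9 and 42.8 CPM in Vehicle 1 to 4. Summed box H/ACA levels were 44.2, 62.1, 14.2 and 11.2 CPM in Bexarotene 1 to 4, against 13.5, 11.4, 14.3 and 20.3 CPM in Vehicle 1 to 4. In both classes 2 bexarotene-treated mice exceeded the whole vehicle group and the other 2 lay within or below their range, so that the groups overlapped. The scaRNAs did the same, with 45.6, 55.7, 15.3 and 22.1 CPM in Bexarotene 1 to 4 and a narrow 20.4 to 23.3 CPM with vehicle. As a share of total counts, this contrast was not seen. Per 1000000 total counts, box C/D RNAs had 55.5, 41.8, 27.0 and 45.5 counts in Bexarotene 1 to 4 and 56.1, 23.9, 31.2 and 78.9 in Vehicle 1 to 4. Box H/ACA RNAs had 23.99, 17.3, 22.7 and 14.0 counts per 1000000 total counts in Bexarotene 1 to 4 and 29.3, 12.2, 10.9 and 37.4 in Vehicle 1 to 4.

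**Figure D2:**
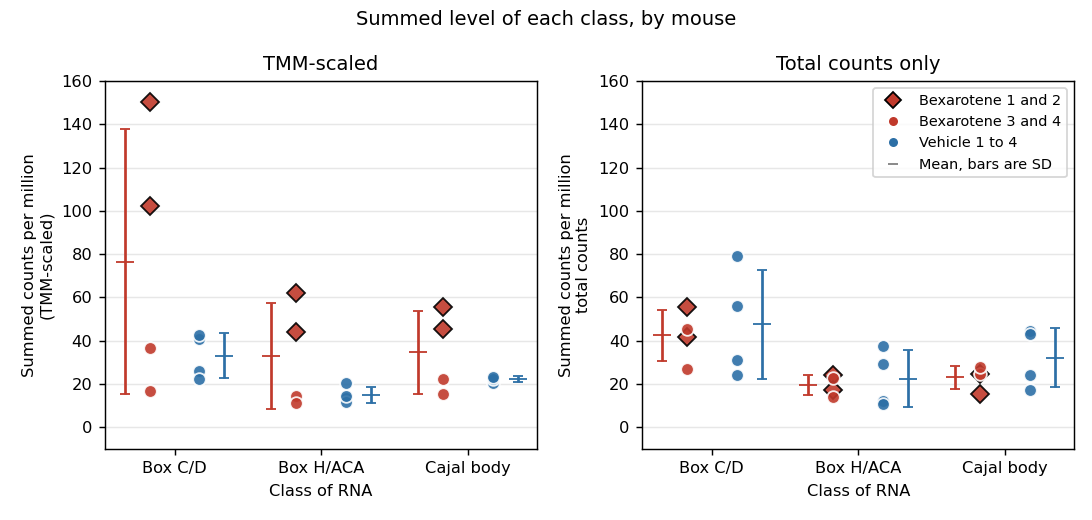
Summed level of each class in each mouse, in TMM-scaled CPM (left panel) and in counts per 1000000 total counts (right panel), bexarotene in red and vehicle in blue. Diamonds mark Bexarotene 1 and 2, and bars give the mean with its SD over 4 mice. Box C/D levels of Bexarotene 1 and 2 (102 and 150 CPM) lie above all other mice on the left and within the range of vehicle on the right (55.5 and 41.8, against 23.9 to 78.9).

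The balance of both classes does not depend on the scaling. Box H/ACA RNAs made up 30.2%, 29.2%, 45.7% and 23.6% of the *Snord* and *Snora* counts in Bexarotene 1 to 4. In Vehicle 1 to 4 they made up 34.3%, 33.7%, 25.9% and 32.2%. This share, and the shares of snoRNA and scaRNA counts given below, cover only rows of the naming rule. The U3 row outside it, with 33322 counts, is left out, so this is not the balance of all snoRNA counts. The group means were 32.2% ± 9.47 and 31.5% ± 3.85 (SD, n = 4 each), a difference far below the spread between mice. The highest share, in Bexarotene 3 (95% Wilson interval, 42.5% to 48.9%), and the lowest, in Bexarotene 4 (21.1% to 26.3%), both fell in the bexarotene group. Bexarotene 1 and 2, which stood apart in level, were within the range of vehicle in this share. The ratio of *Snord3b4* to *Snora73b* counts, which set most of the share, was 2.77, 2.72, 1.18 and 3.50 in Bexarotene 1 to 4, against 2.05, 1.92, 3.05 and 2.104 in Vehicle 1 to 4. Without the leading row of each class, the share averaged 45.4% with bexarotene and 35.3% with vehicle, and rested on few counts.

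Of the 113 RNAs, 10 passed the filter on low counts, which asks for about 10 counts in at least 4 of the 8 mice: 4 box C/D (*Snord3b4*, *Snord3a*, *Snord104* and *Snord17*), 4 box H/ACA (*Snora73b*, *Snora57*, *Snora78* and *Snora43*) and 2 scaRNAs (*Scarna13* and *Scarna2*). Each of them reached that level in mice of both groups. Another 46 had counts but did not pass, with 437 counts in all and at most 11 in a library. Per length, in CPM per kilobase averaged over the 8 mice, *Snord3b4* came first (228, from 63.1 to 634 over the mice), before *Snora73b* (95.4, from 46.9 to 245), *Scarna2* (41.4, from 17.4 to 117) and *Scarna13* (38.7, from 19.97 to 54.2). Ranges of neighbors in this order overlapped over the mice. Within every mouse, *Snord3b4* lay above *Snora73b* and *Snora73b* above *Scarna2*, whereas the order of *Scarna2* and *Scarna13* differed between mice and between the group means. *Scarna2* averaged 61.7 with bexarotene and 21.2 with vehicle, against 30.2 and 47.3 for *Scarna13*, and *Snora57*, further down, averaged 24.01 with bexarotene and 2.33 with vehicle. *Scarna13* lay above *Snord104*, the next, in every mouse. In Bexarotene 2, however, *Scarna13* (19.97) lay below *Snora57* (51.4), *Snord17* (28.4) and *Snora78* (23.1), and *Snora57* also lay above it in Bexarotene 1. The other 6 did not differ beyond their spread, from *Snord104* (13.2) and *Snora57* (13.2) through *Snora78* (8.62), *Snord3a* (7.18) and *Snord17* (5.84) to *Snora43* (4.45), whose ranges all overlapped. For *Snora43* the deposited length is 1450 bases and the annotated span 127, so its value per length is uncertain.

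No RNA passed the adjusted threshold. In edgeR's quasi-likelihood test over 11616 genes with Benjamini-Hochberg adjustment, 0 genes had an adjusted p under 0.05 (0% of genes tested), and the smallest adjusted p was 0.976. DESeq2 and limma-voom also called 0 genes. At an unadjusted p under 0.05, 2 of the 10 RNAs were higher with bexarotene (*Snora57* and *Scarna2*), where 2.38% of all genes tested were, and 1 was lower (*Scarna13*), where 1.3% of all genes were. In none of the 10 did the groups part, whereas they parted with bexarotene higher in 1.41% of genes tested and with bexarotene lower in 1.42%. The median log2 fold change, bexarotene over vehicle, was 0.90 for 4 box C/D RNAs (3 higher, 1 lower) and 1.14 for 4 box H/ACA RNAs (4 higher), beside -0.03 for all genes tested. For the 2 scaRNAs it was 0.44, with 1 on either side of 0. Scaled by total counts alone, the medians were -0.21 for box C/D RNAs, 0.03 for box H/ACA RNAs and -0.52 for scaRNAs, beside -0.66 for all genes. Without Bexarotene 1 and 2 they were -0.37, -0.0019 and -0.11, beside -0.0064 for all genes. Both snoRNA classes thus stood above the median of all genes in either scaling while Bexarotene 1 and 2 were included, and without these mice box H/ACA RNAs stood at that median and box C/D RNAs below it.

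**Figure D3:**
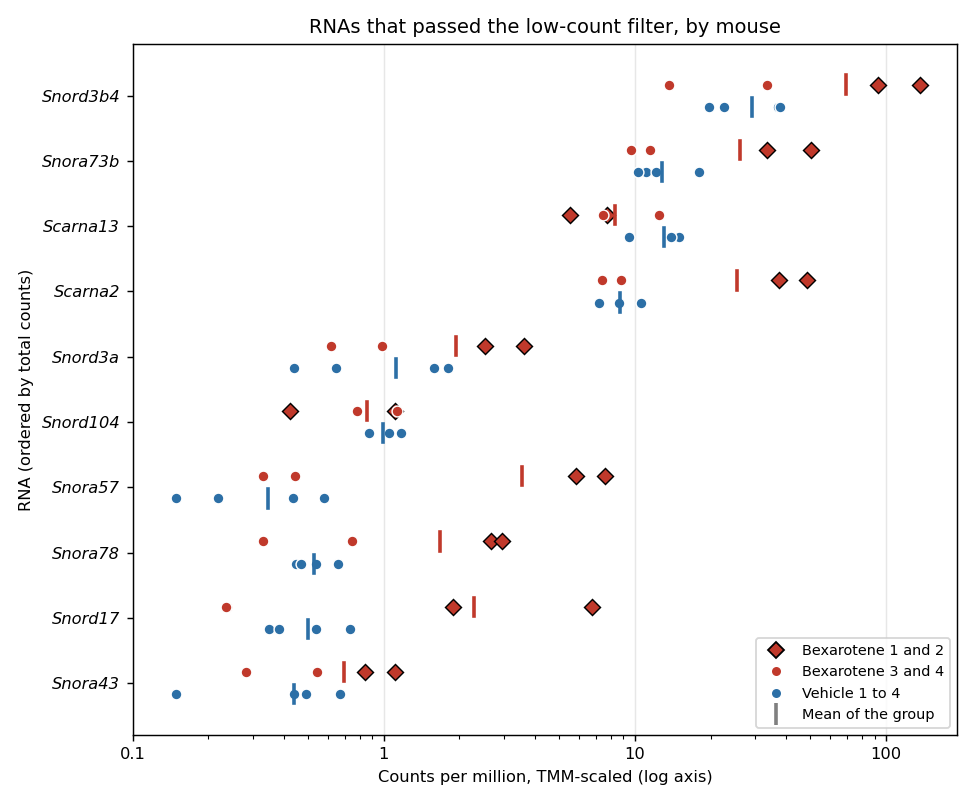
TMM-scaled CPM (log axis) of the 10 RNAs that passed the filter, with bexarotene-treated mice (red) above vehicle-treated mice (blue) in each row and a vertical line at each group mean. Diamonds mark Bexarotene 1 and 2, which lie right of all vehicle-treated mice for 8 RNAs and not for *Scarna13* and *Snord104*.

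Among box C/D RNAs, *Snord3b4* (U3) had 92.9, 137, 13.6 and 33.6 CPM in Bexarotene 1 to 4, against 22.6, 19.8, 37.1 and 37.8 CPM in Vehicle 1 to 4. Bexarotene 1 and 2 were above all vehicle-treated mice, Bexarotene 3 was below them and Bexarotene 4 was among them. Its log2 fold change was 1.21 ± 0.56 (SE; 95% interval, -0.03 to 2.45). Per 1000000 total counts, *Snord3b4* averaged 38.1 ± 12.002 with bexarotene and 42.1 ± 21.9 with vehicle (SD, n = 4 each). The log2 fold change with total counts as the only scaling was -0.14, beside -0.66 for the median of all genes. *Snord3a*, the other U3 row, had 3.63, 2.53, 0.986 and 0.613 CPM in Bexarotene 1 to 4, against 0.437, 0.646, 1.58 and 1.81 CPM in Vehicle 1 to 4. In this row Vehicle 3 and 4 stood above Bexarotene 3 and 4 and below Bexarotene 1 and 2, and its log2 fold change was 0.59 ± 0.63 (SE). The U3 row outside the naming rule moved like *Snord3b4*, with a log2 fold change of 1.19 ± 0.55 (SE).

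*Snord17*, a long box C/D RNA from an intron of *Snx5*, had 1.89, 6.76, 0.238 and 0.236 CPM in Bexarotene 1 to 4, against 0.735, 0.348, 0.382 and 0.536 CPM in Vehicle 1 to 4. Both low values of the bexarotene group lay under the whole vehicle group and both high values lay over it. Its log2 fold change was 1.49 ± 0.96 (SE) over 8 mice and -1.09 without Bexarotene 1 and 2. *Snord104*, the short box C/D RNA, differed from the rest in that Bexarotene 1 and 2 were not raised. It had 1.10, 0.422, 0.782 and 1.13 CPM in Bexarotene 1 to 4, where Bexarotene 2 rests on 1 count, against 0.874, 1.04, 0.874 and 1.17 CPM in Vehicle 1 to 4. The groups overlapped throughout, with a log2 fold change of -0.10 ± 0.33 (SE; 95% interval, -0.83 to 0.64).

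Among box H/ACA RNAs, *Snora73b* (U17) had 33.6, 50.3, 11.5 and 9.62 CPM in Bexarotene 1 to 4, against 11.04, 10.3, 12.2 and 17.9 CPM in Vehicle 1 to 4. As with U3, only Bexarotene 1 and 2 exceeded the vehicle group. The log2 fold change was 0.95 ± 0.46 (SE; 95% interval, -0.07 to 1.97). With total counts as the only scaling it was -0.30, beside -0.66 for the median of all genes. *Snora78*, over an exon of *Snhg9*, had 2.68, 2.96, 0.748 and 0.330 CPM in Bexarotene 1 to 4, against 0.536, 0.448, 0.655 and 0.469 CPM in Vehicle 1 to 4. Bexarotene 3 also lay above the vehicle group in this row, Bexarotene 4 was lowest of all 8, and the log2 fold change was 1.32 ± 0.63 (SE), 0.37 with total counts as the only scaling and 0.064 without Bexarotene 1 and 2. *Snora43*, over an exon of *Snhg7*, had 1.10, 0.845, 0.544 and 0.283 CPM in Bexarotene 1 to 4 and 0.149 to 0.670 CPM with vehicle, with a log2 fold change of 0.40 ± 0.56 (SE).

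*Snora57*, a box H/ACA RNA of 148 bases, had the largest difference of the 10. It had 5.84, 7.602, 0.442 and 0.330 CPM in Bexarotene 1 to 4, against 0.576, 0.149, 0.218 and 0.435 CPM in Vehicle 1 to 4. The log2 fold change was 2.92 ± 0.97 (SE; 95% interval, 0.80 to 5.04; unadjusted p = 0.0114, adjusted p = 0.976, edgeR's quasi-likelihood test), and the two-sided exact permutation test over the 70 assignments of the mice gave p = 0.171, where 0.0286 is the smallest p it can give. In raw counts the row was small, with 37, 18, 13 and 7 in Bexarotene 1 to 4 and 29, 3, 4 and 13 in Vehicle 1 to 4. *Snora57* was also high in Bexarotene 1 and 2 as a share of snoRNA and scaRNA counts, which needs no scaling. This share was 3.04% (95% Wilson interval, 2.21% to 4.16%) and 2.83% (1.80% to 4.44%) in these mice, 0.954% and 0.473% in Bexarotene 3 and 4, and 0.263% to 0.965% with vehicle. With total counts as the only scaling its log2 fold change was 1.39, and without Bexarotene 1 and 2 it was 0.11. Leaving out Bexarotene 1 alone took its unadjusted p to 0.0566 (edgeR).

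The 2 most counted scaRNAs had log2 fold changes of opposite sign in TMM scaling, and neither passed the adjusted threshold. *Scarna2*, which in human cells guides ribose methylation of the spliceosomal U2 RNA, had 37.4, 48.6, 7.38 and 8.77 CPM in Bexarotene 1 to 4, against 10.5, 8.60, 7.21 and 8.67 CPM in Vehicle 1 to 4. Bexarotene 3 and 4 fell inside the narrow vehicle range. The log2 fold change was 1.46 ± 0.53 (SE; 95% interval, 0.29 to 2.62; unadjusted p = 0.0185, adjusted p = 0.976, edgeR's quasi-likelihood test), 0.08 with total counts as the only scaling and -0.11 without Bexarotene 1 and 2. The exact permutation test (two-sided) gave p = 0.257 for it, and the unadjusted p of edgeR rose over 0.05 without Bexarotene 1, without Bexarotene 2 or without Vehicle 3.

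*Scarna13*, a scaRNA with ACA boxes known as U93 in human cells, had 7.73, 5.49, 7.48 and 12.5 CPM in Bexarotene 1 to 4, against 9.47, 13.8, 14.9 and 13.9 CPM in Vehicle 1 to 4. Bexarotene 1, 2 and 3 lay below all vehicle-treated mice and Bexarotene 4 lay among them. Its log2 fold change was -0.59 ± 0.24 (SE; 95% interval, -1.12 to -0.05; unadjusted p = 0.0336, adjusted p = 0.976, edgeR's quasi-likelihood test), and the two-sided exact permutation test gave p = 0.0571. It kept this sign in every alternative run. Its value was -1.11 when only total counts were used for scaling, beside -0.66 for the median of all genes. Without Bexarotene 1 and 2 it was -0.36, beside -0.0064 for that median. The permutation p missed 0.05, and leaving out any one of 6 of the 8 mice (Bexarotene 1, 2 or 3 or Vehicle 2, 3 or 4) took the unadjusted p over 0.05 as well, with a range of 0.0033 to 0.095 over the 8 mice left out (edgeR). When scaled by total counts alone, the unadjusted p was 0.143.

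The ratio of both scaRNAs needs no scaling. Counts of *Scarna13* per count of *Scarna2* were 0.207, 0.113, 1.014 and 1.42 in Bexarotene 1 to 4, against 0.898, 1.60, 2.07 and 1.60 in Vehicle 1 to 4. As a share of snoRNA and scaRNA counts, *Scarna13* made up 4.03% (95% Wilson interval, 3.06% to 5.28%) and 2.05% (1.20% to 3.47%) in Bexarotene 1 and 2, and 16.2% and 17.9% in Bexarotene 3 and 4. In vehicle-treated mice it made up 15.9% to 24.3%. The low ratio was thus a feature of Bexarotene 1 and 2, which had the lowest protein-coding shares, and the part of library quality in it was not tested. *Snord3b4* made up 48.4%, 51.0%, 29.4% and 48.2% of the same counts in Bexarotene 1 to 4 and 34.9% to 47.9% with vehicle. Intervals here and above cover counting error only.

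**Figure D4:**
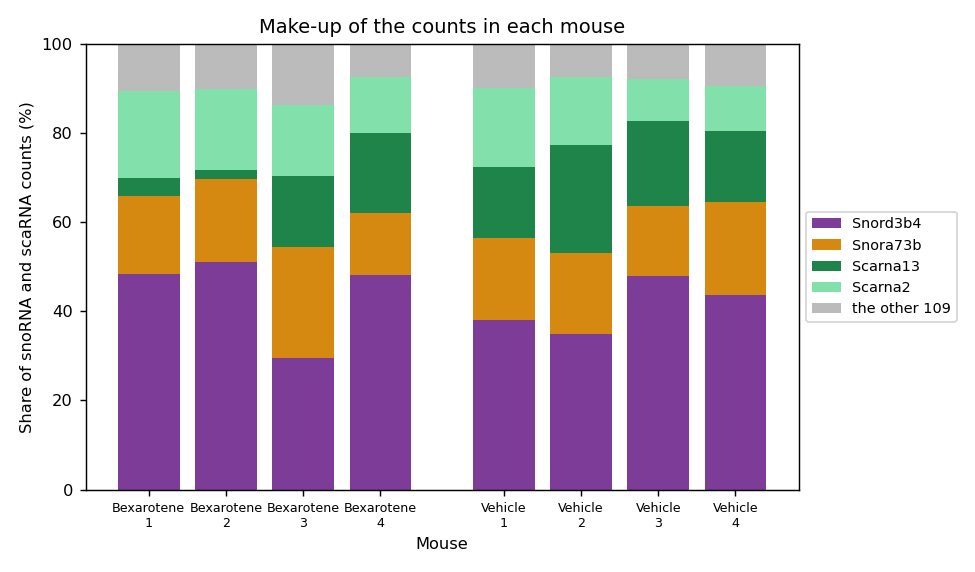
Share of each of the 4 most counted RNAs, and of the other 109 together, in the snoRNA and scaRNA counts of each mouse (percent), bexarotene on the left and vehicle on the right. The *Scarna13* band is narrow in Bexarotene 1 and 2 (4.03% and 2.05%) and takes 15.9% to 24.3% in the other 6 mice.

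**Figure D5:**
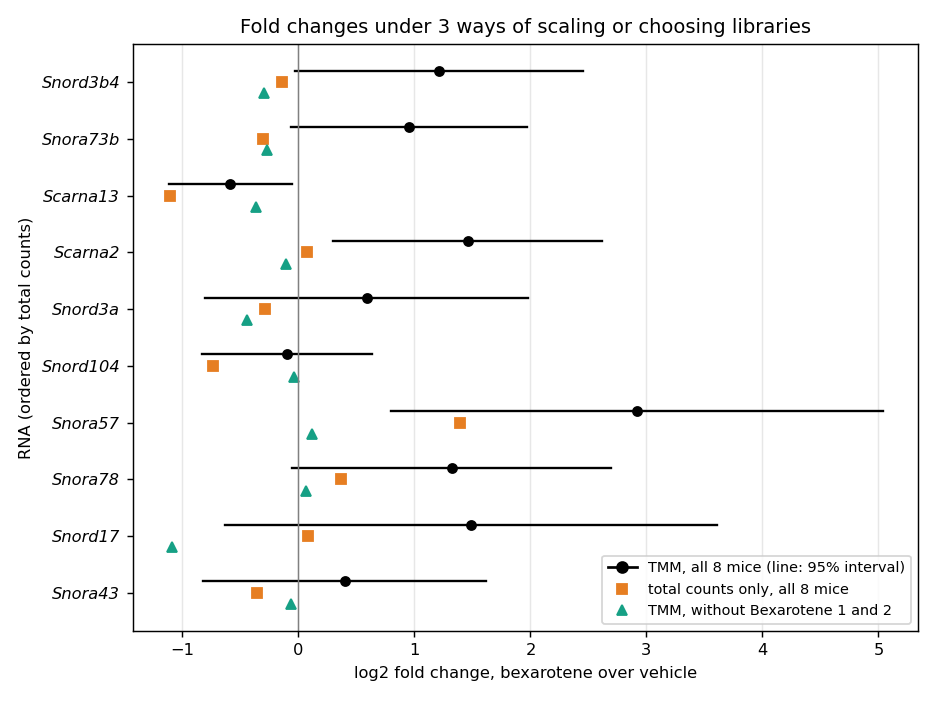
Log2 fold changes, bexarotene over vehicle, of the 10 RNAs in TMM scaling with all 8 mice (black, with 95% interval), with total counts as the only scaling (orange) and without Bexarotene 1 and 2 (green). *Scarna13* stays below 0 and *Snora78* and *Snora57* above 0 in all 3 (0.064 and 0.11 in green), whereas *Snord3b4* and *Snora73b* lie above 0 only in the first. The median of all genes is -0.03 (black), -0.66 (orange) and -0.0064 (green) in these settings and is not drawn.

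Genes for the proteins that work with these RNAs did not pass the test in either direction. All 25 listed genes with a row were tested, 10 were higher and 15 lower, 0 had an unadjusted p under 0.05 in edgeR's test and their median log2 fold change was -0.09. All 4 box C/D core genes had values below 0 (median -0.32), and *Nop56* and *Fbl*, the most abundant, had 13.3 ± 5.24 and 13.8 ± 5.76 CPM with bexarotene, against 17.6 ± 5.27 and 16.6 ± 2.07 CPM with vehicle (SD, n = 4 each). Of the 4 box H/ACA core genes 3 were below 0 (median -0.32), among them *Dkc1*, which encodes dyskerin, at 8.52 ± 1.42 CPM with bexarotene and 11.4 ± 1.85 CPM with vehicle (SD, n = 4 each). *Nhp2*, of the same complex, stood at 7.70 ± 2.96 and 7.28 ± 0.99 CPM. The 10 assembly factors were spread around 0 (median 0.08, 7 higher), with *Nop53*, a nucleolar protein of ribosome assembly, at 12.1 ± 2.18 and 12.3 ± 1.05 CPM and *Ruvbl2*, an ATPase of the assembly machinery, at 10.1 ± 1.85 and 9.82 ± 0.81 CPM. The 7 Cajal body and nucleolar carriers had a median of -0.20, and *Nolc1*, whose product moves between nucleolus and Cajal bodies and binds both snoRNA classes, and *Tcof1*, which acts in transcription of ribosomal RNA, stood at 26.4 ± 8.39 and 19.5 ± 0.86 CPM with bexarotene, against 30.4 ± 5.16 and 18.6 ± 5.21 CPM with vehicle. Without Bexarotene 1 and 2 the median of all 25 was -0.0039, and with total counts as the only scaling it was -0.74, beside -0.66 for all genes.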

How the data were processed

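RNA-seq libraries of 8 mice (4 bexarotene, 4 vehicle) were used. For the authors' upstream steps, the labels name Trimmomatic 0.30, FastQC 0.11.9, HISAT2 2.0.1 (the methods give a different version) and HTSeq 0.6.1 on GRCm39. The deposited values were raw counts per gene, whole numbers without scaling. Whether HTSeq counted by strand is not given in the sources used here. The software used here was R 4.3.3 and edgeR 4.0.16 (filterByExpr with minimum count 10 and minimum total 15, TMM, quasi-likelihood test without covariates, Benjamini-Hochberg adjustment over all 11616 genes). DESeq2 1.42.0, limma 3.58.1 (voom), other scalings, other filters, a replicate block and each mouse left out were alternatives. The edgeR step was tested on simulated data. Single RNAs were also compared by exact permutation over the 70 assignments of the mice. Hosts, exons and sequences came from GENCODE vM39. The RNAs named were the most abundant of each class and those with the smallest p among the 10 past the filter (all 10), with RNAs of ribosomal precursor cleavage and of imprinted brain clusters, and the most abundant of each partner list. The RNAs and lists were chosen with earlier results of these data known. The labels do not say whether the mice were handled in separate batches, so p-values measure the spread between these mice.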

Additional observations from a re-analysis of the deposited data

How the results depend on the processing

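In every alternative that was run, 0 of the 10 RNAs had an adjusted p under 0.05. With all 8 mice, the groups overlapped for all 10 in every scaling and filter tried. With each mouse left out, a check chosen after seeing the data, the number whose groups did not overlap was 0 to 2: *Scarna13* (lower) and *Snora78* (higher) without Bexarotene 4, and *Scarna13* (lower) without Vehicle 1. It was 1 (*Snord17*, lower) without Bexarotene 1 and 2. In these settings, 2.14% to 4.44% of all genes tested did not overlap in the same direction. Over all genes tested, 1 gene passed when total counts were the only scaling and Bexarotene 1 and 2 were left out, a setting chosen after seeing the data, and 0 passed in the other settings. RNAs with an unadjusted p under 0.05 numbered 3 of 10 in the fit reported, 6 in DESeq2, 1 in limma-voom and 0 with total counts only. Without a filter they numbered 8, but of 56 rows, and without Bexarotene 1 and 2 they numbered 0 in either scaling. With each mouse left out in turn they numbered 0 to 7, with 0 without Bexarotene 1 and 7 without Bexarotene 4. The share of all genes under this threshold is given only for the fit reported (2.38% higher and 1.3% lower with bexarotene). The numbers in the other settings therefore cannot be read as more or fewer than among all genes. The labels give no pairing of the mice by number. Correlations of same-numbered mice (-0.06, -0.05, -0.14 and 0.05) lay within the range of the other pairs (-0.18 to 0.21). So few values cannot decide whether the mice were paired. With a replicate block, 3 RNAs had an unadjusted p under 0.05 and 0 an adjusted one, and no direction changed.

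With total counts only, log2 fold changes changed sign to -0.14 for *Snord3b4*, -0.30 for *Snora73b*, -0.28 for *Snord3a*, -0.36 for *Snora43*, -0.66 for *Rmrp* and -0.17 for *Rn7s6*. Without Bexarotene 1 and 2 they did so to -0.30 for *Snord3b4*, -0.27 for *Snora73b*, -0.11 for *Scarna2*, -0.44 for *Snord3a*, -1.09 for *Snord17*, -0.068 for *Snora43*, -0.22 for *Rmrp* and -0.49 for *Rn7s6*. With both changes the values were -0.40 for *Snord3b4*, -0.34 for *Snora73b*, -0.23 for *Scarna2*, -0.38 for *Snord3a*, -1.25 for *Snord17*, -0.13 for *Snora43* and -0.082 for *Snora57*. The median of all genes was -0.66 with total counts only, and the values that changed sign in that setting lay at or above it. This median was -0.0064 without Bexarotene 1 and 2 and -0.051 with both changes. *Snord17* was at -0.32 in limma-voom. With each mouse left out, *Snord3a* ranged from -0.035 (without Bexarotene 1) to 1.03 and *Snord104* from -0.25 to 0.034 (without Bexarotene 3), and both crossed 0. *Scarna13* stayed below 0 and *Snora78* above 0 in all settings, the last at 0.064 without Bexarotene 1 and 2.

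The box C/D median log2 fold change was -0.21 with total counts only, 0.29 without a filter (34 rows), 0.11 in limma-voom, -0.37 without Bexarotene 1 and 2, and -0.39 with total counts only and without these mice. The box H/ACA median was 0.032 with total counts only, 0.45 without a filter (16 rows), 0.50 in limma-voom, -0.0019 without Bexarotene 1 and 2 and -0.11 with both changes, and the scaRNA median was -0.52, -0.11 and -0.23 with total counts only, without these mice and with both changes. The median of the protein genes was -0.74 with total counts only, where that of all genes was -0.66, and -0.0039 without Bexarotene 1 and 2. The H/ACA share, higher by 0.63 percentage points with bexarotene, was higher by 10.03 points without the leading row of each class, and ranged from -3.88 to 3.49 points with each mouse left out. Rows under about 10 counts per mouse were too shallow for any comparison.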

Other observations

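Other small structured RNAs were set beside the snoRNAs. *Rmrp*, the RNA of the mitochondrial RNA processing ribonuclease, which also acts in cleavage of the ribosomal RNA precursor, had 198, 188, 136 and 118 CPM in Bexarotene 1 to 4, against 99.7, 131, 185 and 178 CPM in Vehicle 1 to 4. Its log2 fold change was 0.10 ± 0.26 (SE), the groups overlapped, and Bexarotene 1 and 2 exceeded the highest vehicle-treated mouse by little. *Rn7s6*, an RNA of the signal recognition particle that was added after its values were seen, had 907, 1235, 134 and 235 CPM in Bexarotene 1 to 4, against 198.5, 195, 309 and 346 CPM in Vehicle 1 to 4. Its log2 fold change of 1.26 ± 0.59 (SE) and its 2 high mice were like those of *Snord3b4*. Neither passed the test of edgeR, with adjusted p-values of 0.9999 and 0.976. Of the other listed RNAs, *Rnu11* and *Rnu12*, which belong to the minor spliceosome, had 79 and 32 counts, *Rny1* and *Rny3* had 7 and 8, and *Rpph1* stood at 0.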
